A study of Mus musculus with 9 samples.

Results

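G1C7 and G2C9 are TIM-3 knockout derivatives of NP53, a mouse tumour cell line of diffuse midline glioma, and the comparison asks how far these knockouts differ from each other. Its members were the 3 libraries titled G1C7 and the 3 titled G2C9, of 9 libraries in the series, over all genes except those on the Y chromosome (53832 genes, of which 15604 had enough reads to be tested). The other 3 libraries, from the NP53 cells named Gcontrol, are labelled wild type (WT) and are set beside the clones. The labels give the same medium for all cells, DMEM with 10% fetal bovine serum and antibiotics, and polyadenylated RNA was sequenced. G1C7 and G2C9 are called clones below for brevity; the labels call them derivatives and do not say whether each grew from a single cell, nor how the knockout was made. The origin of the 3 libraries of a group, whether separate dishes or 1, is not given either; the spread behind each p-value may therefore be technical.

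TIM-3, encoded by Havcr2, is an inhibitory surface receptor best known from exhausted T cells, myeloid cells and microglia, and it binds galectin-9, HMGB1, CEACAM1 and phosphatidylserine. Diffuse midline glioma is a childhood tumour of the brainstem and other midline structures, and its tumour cells often resemble oligodendrocyte precursors. Knockout studies often carry more than 1 derivative of a line, since derivatives can differ from each other at genes unrelated to the target.

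The clone libraries held between 50110129 and 55743695 reads in genes, and 6 reads, the floor used below, corresponded to between 0.109 and 0.122 CPM (counts scaled to 1000000 reads per library). A library of each clone stood apart before any test. The root mean square log2 difference was 0.413 between G1C7 replicates 1 and 3, but 0.940 and 0.930 between replicate 2 and these. It was 0.436 between G2C9 replicates 1 and 2, but 0.760 and 0.768 between replicate 3 and these. Other pairs across the clones (G1C7 replicates 1 and 3 against G2C9 replicates 1 and 2) differed by 0.662 to 0.673, less than either odd library differed from its own group. Haptoglobin, an acute-phase protein encoded by Hp, was at 4.08, 205 and 4.05 CPM in G1C7 replicates 1 to 3 and at 21.5, 20.3 and 493 CPM in G2C9 replicates 1 to 3. Summed fibroblast and pericyte markers gave 3962, 9758 and 3831 CPM in G1C7 and 4821, 4798 and 9727 CPM in G2C9, against 6552 to 6852 CPM in Gcontrol. The count of calls, the gene lists and the chromosome medians below are therefore given with and without G1C7 replicate 2 and G2C9 replicate 3; in bulk RNA, fewer cells of a type and less RNA per cell cannot be told apart. Of the markers that define the neural lineages, Olig1, Olig2 and Aqp4 had 0 reads in 9 of 9 libraries and Sox10 at most 2, while Pdgfra lay between 331 and 541 CPM in the clones; the T cell gene Cd3e and the endothelial gene Cldn5 also had 0 reads.

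The targeted gene was low everywhere and did not separate the clones. Havcr2 (chromosome 11, 46454935 to 46481255, plus strand, GRCm38) had 55, 6 and 66 reads in the G1C7 libraries and 39, 30 and 28 in the G2C9 libraries. That is 1.03, 0.109 and 1.21 CPM against 0.772, 0.612 and 0.547 CPM, beside 1.37, 1.07 and 1.06 CPM in Gcontrol. The groups overlapped, since G1C7 replicate 2 lay below every G2C9 library, and the log2 difference, G1C7 minus G2C9, was 0.28 ± 0.65 (SE, n = 3 and 3; adjusted p = 0.916 in the edgeR quasi-likelihood fit). Without the 2 libraries that stood apart it was 0.69, with an adjusted p of 0.0988. A count over the whole gene does not show whether its reading frame was disrupted, so it does not check the knockout label. Of the TIM-3 ligands Lgals9, Hmgb1 and Ceacam1, 0 were called by edgeR, limma-voom or DESeq2 or had an unadjusted p under 0.05. Lgals9, encoding galectin-9, was at 4.66, 11.4 and 5.37 CPM in G1C7 and 2.38, 2.86 and 9.69 CPM in G2C9 (log2 difference 0.52 ± 0.54, adjusted p = 0.765), a difference that was called at 0.94 (adjusted p = 2.24e-05) without the 2 libraries that stood apart. Ceacam1, at 49, 2 and 40 reads in G1C7 and 18, 6 and 11 in G2C9, was then called too, at 1.77 (adjusted p = 0.0420), against 1.27 (adjusted p = 0.651) with all libraries.

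Between the clones, 517 of 15604 tested genes (3.31%) were called at an adjusted p under 0.05. Of these, 261 were higher in G1C7 (1.67%) and 256 higher in G2C9 (1.64%), and 499 were protein coding. Called genes with at least a 2-fold difference numbered 234 (1.5%), 111 higher in G1C7 (0.711%) and 123 higher in G2C9 (0.788%). Libraries of the clones did not overlap for 2842 genes (18.2%), 1511 higher in G1C7 (9.68%) and 1331 higher in G2C9 (8.53%), which included all 517 called ones. All 517 were also called when G1C7 replicate 2 and G2C9 replicate 3 were left out, in a fit that called 4310 of 15801 genes (27.3%). Leaving out single libraries moved the count too: it was 1273 without G1C7 replicate 2 and 575 without G2C9 replicate 3, but between 179 and 278 without any one of the other 7, Gcontrol included, and 152 genes were called in each of these 9 fits. With only the 6 clone libraries in the fit 65 genes were called. Of 95 called genes that the naming rule chose, 60 lost their call there. Those described in the following paragraphs that kept it were Rragb, Atp8a1, Soga3, Gata4, Zfp521, Gm5141, Zfp518b, Eid2, Fzd3, Rnf113a2, Dclk2, Miga1, Tdrkh, Fndc4, Sall2, Spn, Lrfn3, Mmp3, Col4a1, Bex3, Wls, Tgfa, Hoxa7, Ephb4, Tgfb1i1 and Impact. Tmem144, Rnf227, Nme4 and Dpy19l3, given among the results flagged for a closer look, kept it too. Each clone differed from Gcontrol at more genes than the clones differed from each other, with 2728 calls in G1C7 (17.5%) and 2094 in G2C9 (13.4%); these comparisons share the Gcontrol libraries.

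**Figure D1:**
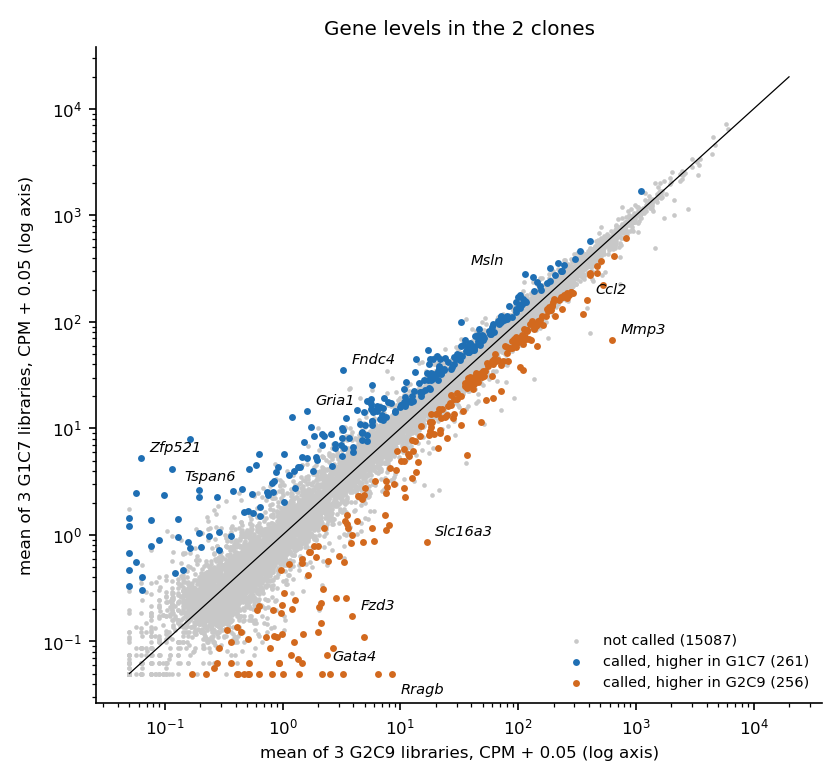
Mean level of each tested gene in the 3 G1C7 libraries (vertical) against the 3 G2C9 libraries (horizontal), in CPM plus 0.05 on log axes; each point is a gene, coloured where called at an adjusted p under 0.05. The 261 genes called higher in G1C7 and the 256 called higher in G2C9 lie on either side of the line of equality, and points on the lower and left edges are genes at 0 reads in a clone.

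Some genes had few or no reads in 1 clone and clear counts in the other. Taking at most 6 reads over the 3 libraries of a clone and a mean of 1 CPM or more in the other, 12 of 11845 genes were at or near 0 in G1C7 (0.101%) and 6 of 11849 in G2C9 (0.0506%). Promoters of 4 of them are shown, because mammalian promoters are commonly classed by their CpG content. They are given in the RefSeq table's 300-base windows (250 bases before to 50 bases after the start, build GRCm38.p6), 5′ to 3′ on the gene's strand and with each CpG in capitals. They are Rragb (chrX:153139708-153140007, plus strand) and Atp8a1 (chr5:67847382-67847681, minus strand), at 0 in G1C7, and Gm5141 (chr13:62785759-62786058, minus strand) and Efemp1 (chr11:28852955-28853254, plus strand), at or near 0 in G2C9. Efemp1 is among the less sharp, with 44, 140 and 46 reads in G1C7 and 0 in each G2C9 library. Its edgeR call ended with only the 6 clone libraries in the fit (adjusted p = 0.0954).

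Rragb: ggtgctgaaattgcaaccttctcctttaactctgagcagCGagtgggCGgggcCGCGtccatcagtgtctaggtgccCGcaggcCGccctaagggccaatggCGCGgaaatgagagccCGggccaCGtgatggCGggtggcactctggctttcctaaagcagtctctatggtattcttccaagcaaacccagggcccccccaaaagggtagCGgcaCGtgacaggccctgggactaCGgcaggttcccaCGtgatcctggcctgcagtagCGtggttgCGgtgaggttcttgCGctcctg

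Atp8a1: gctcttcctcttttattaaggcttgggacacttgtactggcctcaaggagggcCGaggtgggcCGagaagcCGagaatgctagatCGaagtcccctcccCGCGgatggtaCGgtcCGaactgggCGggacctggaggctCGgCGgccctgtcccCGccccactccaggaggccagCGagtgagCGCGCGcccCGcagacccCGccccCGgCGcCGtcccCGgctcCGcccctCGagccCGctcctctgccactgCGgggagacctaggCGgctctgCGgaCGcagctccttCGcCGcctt

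Gm5141: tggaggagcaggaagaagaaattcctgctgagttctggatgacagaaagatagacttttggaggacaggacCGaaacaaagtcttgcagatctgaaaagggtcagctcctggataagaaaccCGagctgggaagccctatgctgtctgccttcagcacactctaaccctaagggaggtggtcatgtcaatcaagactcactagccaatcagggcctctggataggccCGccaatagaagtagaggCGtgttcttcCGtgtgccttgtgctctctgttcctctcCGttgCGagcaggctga

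Efemp1: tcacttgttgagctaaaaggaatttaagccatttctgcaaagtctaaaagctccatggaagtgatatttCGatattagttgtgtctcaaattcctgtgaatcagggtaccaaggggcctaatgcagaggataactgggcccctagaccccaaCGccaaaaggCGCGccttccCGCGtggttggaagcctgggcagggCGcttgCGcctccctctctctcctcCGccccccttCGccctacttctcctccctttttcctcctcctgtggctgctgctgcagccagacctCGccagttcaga

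The Atp8a1 window held 31 CpG, that of Rragb 18, Efemp1 11 and Gm5141 7. Of the 18 genes at or near 0 in a clone, 15 matched an entry of the table, and their windows held between 5 and 32 CpG with a median of 19. Over all 32851 windows of that length the median was 7 (quartiles 3 and 20), and 94.6% held at least 1 CpG on either strand, the letters CG reading the same on both. The 18 genes had to reach a mean of 1 CPM in a clone, whereas the windows were taken whatever the level of their gene. The medians of 19 and 7 are therefore not like for like, and no median over expressed genes was computed. The counts describe letters only.

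Rragb, encoding a Rag GTPase that relays amino acid supply to mTORC1 at the lysosome (chromosome X, 153139981 to 153171943, plus strand), had 0 reads in each G1C7 library. It had 454, 470 and 357 reads in the G2C9 libraries and 571, 561 and 531 in Gcontrol. The level was thus at least 231-fold lower in G1C7 than in G2C9, against a floor of 6 reads over the clone, while G2C9 stayed near Gcontrol (log2 difference -0.25, adjusted p = 0.437). Atp8a1, a phospholipid flippase that moves aminophospholipids such as phosphatidylserine to the inner leaflet (chromosome 5, 67618140 to 67847434, minus strand), had 0 reads in each G1C7 library against 172, 128 and 189 in G2C9 and 193 to 230 in Gcontrol, at least 88.2-fold lower. Ildr2, a membrane protein of the immunoglobulin superfamily, and Soga3 also had 0 reads in each G1C7 library, at levels at least 68.4-fold and 57.4-fold lower than in G2C9. Slc4a3, an anion exchanger, was also at 0 in G1C7 (at least 36.6-fold lower), with 37 and 34 reads in G2C9 replicates 1 and 2 and 132 in replicate 3.

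Gata4, a transcription factor of heart and endoderm (chromosome 14, 63198922 to 63271692, minus strand), differed from these in its level in the parental cells. It had 0 reads in each G1C7 library, 356, 303 and 314 in G2C9 and 32, 50 and 54 in Gcontrol. G1C7 was at least 176-fold lower than G2C9, and G2C9 was called higher than Gcontrol by 2.97 on the log2 scale (adjusted p = 0.0011). The C1q-like gene C1ql1, an oligodendrocyte precursor marker, also separated all 3 groups: it had 0, 4 and 0 reads in G1C7, 72, 50 and 47 in G2C9 and 416 to 432 in Gcontrol. Both clones were called below Gcontrol there (adjusted p = 0.000287 and 0.00647). Nppc, the precursor of C-type natriuretic peptide, rested on 1 library: it had 4, 8 and 172 reads in G2C9 and was not tested.

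On the other side, Zfp521, a zinc-finger regulator of progenitor cells on chromosome 18, had 248, 355 and 246 reads in G1C7 and 2, 0 and 0 in G2C9, a ratio of 392 with a 95% counting interval of 69.9 to 15500. Gcontrol, at 221 to 266 reads, was at the G1C7 level (log2 difference 0.27, adjusted p = 0.637). Gm5141, a predicted gene, had 115, 168 and 111 reads against 0, 1 and 0. Zfp518b had 60, 76 and 54 reads in G1C7 and 0 in each G2C9 library, at least 29.3-fold lower, but 328 to 372 in Gcontrol, so both clones were called below the parental cells (adjusted p = 0.00102 for G1C7 and 8.28e-05 for G2C9). Eid2, an inhibitor of differentiation, behaved likewise with 56, 106 and 56 reads in G1C7, 2, 0 and 2 in G2C9 and 306 to 327 in Gcontrol. Srpx, a sushi-repeat protein, had 22, 233 and 24 reads against 0, 0 and 0; its G1C7 count came mostly from replicate 2 and it missed the threshold (adjusted p = 0.0592). Intervals and floors cover counting error only.

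**Figure D2:**
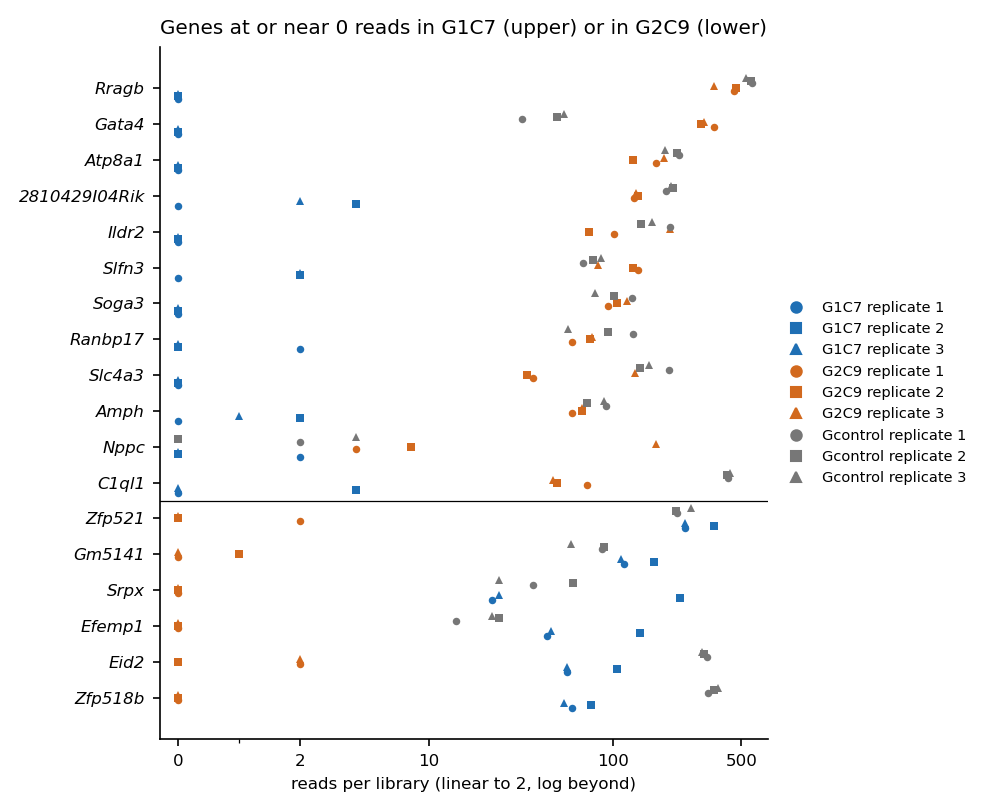
Reads per library (horizontal, linear to 2 and logarithmic beyond) of the 12 genes at or near 0 in G1C7, above the line, and the 6 at or near 0 in G2C9, below it; colours are groups and symbols are replicates. Rragb and Atp8a1 have 0 reads in the 3 G1C7 libraries and over 100 in each of the other 6, while Nppc reaches 172 reads in G2C9 replicate 3 alone.

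Further genes were much lower in G1C7 than in G2C9 without meeting that rule. Fzd3, a WNT receptor of axon tracts, was at 0.187, 0.0728 and 0.11 CPM in G1C7 and at 3.6, 4.73 and 3.13 CPM in G2C9. The libraries did not overlap, and the log2 difference of -4.93 ± 0.35 (adjusted p = 0.000395) put G1C7 lower by 5.39 against Gcontrol, with G2C9 at -0.46 (adjusted p = 0.327). Rnf113a2, a RING-finger gene, was at 0.0374 to 0.0730 CPM against 4.24 to 6.06 CPM (log2 difference -6.27 ± 0.31, adjusted p = 5.49e-05). It has a close relative, and reads that map to both would not have been counted. Dclk2, a microtubule-associated kinase of neurons, was at 0.187, 0.255 and 0.183 CPM in G1C7 and 2.73, 1.88 and 3.71 CPM in G2C9, both below the 6.64 to 7.21 CPM of Gcontrol. Slc16a3, the lactate exporter MCT4, was at 0.916, 0.401 and 1.10 CPM against 8.02, 7.79 and 34.6 CPM, with Gcontrol between them at 3.51 to 4.02 CPM. Its log2 difference was -4.38 ± 0.67 (adjusted p = 0.0116), fell in size to -3.30 without G2C9 replicate 3 and -2.97 without both libraries that stood apart, and was not called without G1C7 replicate 1 (adjusted p = 0.0533).

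Among genes higher in G1C7, Fndc4, encoding a secreted fibronectin type III protein, was at 34.2, 36.5 and 34.6 CPM in G1C7 and at 2.26, 2.65 and 4.71 CPM in G2C9. Gcontrol lay between them at 17.6 to 18.1 CPM, and the log2 difference was 3.45 ± 0.25 (adjusted p = 0.000395). Mapk12, the p38 gamma kinase, was at 8.86, 20.8 and 8.58 CPM against 0.891, 0.959 and 1.62 CPM (3.46 ± 0.40, adjusted p = 0.00336). Here the G1C7 level of replicates 1 and 3 matched the 7.96 to 8.11 CPM of Gcontrol, and G2C9 was the group that departed (-2.79, adjusted p = 0.00292). G2C9 was also called below Gcontrol for the zinc-finger factor Sall2 (log2 difference 3.31 ± 0.29 between the clones, G2C9 at -2.50 against Gcontrol) and for Spn, encoding the leukocyte sialoglycoprotein CD43 (2.6 ± 0.28, G2C9 at -1.84). It was likewise below for Ano1, a calcium-activated chloride channel (2.94 ± 0.38, G2C9 at -2.29), and for the synaptic adhesion gene Lrfn3 (4.13 ± 0.42, G2C9 at -3.98). G1C7 was not called against Gcontrol at any of these 5 genes, although its 3 libraries lay above the 3 of Gcontrol for Mapk12, Sall2, Spn and Ano1 (log2 differences from 0.65 for Ano1 to 0.80 for Sall2). Tspan6, a tetraspanin, was at 3.44, 5.24 and 3.65 CPM in G1C7 and had reads in G2C9 replicate 3 alone (0, 0 and 0.195 CPM). Gria1, an AMPA receptor subunit, went the other way: it was at 19.5, 6.32 and 17.7 CPM in G1C7, 2.06, 1.57 and 1.02 CPM in G2C9 and 0.980 to 1.34 CPM in Gcontrol, so that G1C7 departed by 3.69 (adjusted p = 0.00141) and G2C9 by 0.47 (adjusted p = 0.545).

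Several abundant genes higher in G2C9 encode secreted proteins. Mmp3, encoding stromelysin-1, a matrix protease that inflammatory cytokines induce, was at 71.5, 53.9 and 77.4 CPM in G1C7 and 409, 427 and 1040 CPM in G2C9. Every G2C9 library lay above every G1C7 library, and G1C7 lay near the 50.1 to 51.8 CPM of Gcontrol. The log2 difference was -3.21 ± 0.36 (adjusted p = 0.00279) and -2.49 without the 2 libraries that stood apart. The monocyte chemoattractants Ccl2 and Ccl7 were called as well. Ccl2 was at 162, 148 and 171 CPM in G1C7 and 312, 317 and 527 CPM in G2C9 (-1.27 ± 0.19, adjusted p = 0.0116), with Gcontrol at 419 to 456 CPM. Ccl7 was at 65.9, 46.6 and 65.4 CPM against 126, 140 and 165 CPM (-1.28 ± 0.16, adjusted p = 0.00459). Lif, a cytokine of the IL-6 family, was at 125, 117 and 117 CPM in G1C7 and 230, 236 and 594 CPM in G2C9 (-1.56 ± 0.33, adjusted p = 0.0423). Its difference depended on G2C9 replicate 3, being -0.97 without it, and its call ended without G1C7 replicate 1 or 3, without G2C9 replicate 2 or without any single Gcontrol library (adjusted p from 0.0528 to 0.131). Ereg, encoding epiregulin, an EGF receptor ligand, was at 232, 214 and 226 CPM against 422, 423 and 746 CPM (-1.24 ± 0.21, adjusted p = 0.0167), a call that ended without G1C7 replicate 1 (adjusted p = 0.0627) or 3 (0.0640).

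Among abundant genes higher in G1C7, both chains of basement-membrane collagen IV stood out together. Col4a1 was at 326, 335 and 300 CPM in G1C7 and 193, 179 and 188 CPM in G2C9 (0.78 ± 0.09, adjusted p = 0.0026), with Gcontrol at 321 to 371 CPM. Col4a2, its head-to-head neighbour on chromosome 8, was at 172, 215 and 150 CPM against 102, 96.1 and 114 CPM (0.78 ± 0.14, adjusted p = 0.0204), but its call ended without G1C7 replicate 1, G2C9 replicate 1, G2C9 replicate 2 or Gcontrol replicate 1 (adjusted p from 0.0531 to 0.0916). Strand was ignored in counting, so reads where the pair overlap could not be assigned by strand. Nes, encoding nestin, the intermediate filament of neural progenitors, was at 158, 149 and 150 CPM in G1C7 and 101, 96.9 and 90.1 CPM in G2C9 (0.67 ± 0.08, adjusted p = 0.00459). Bex3, a small adaptor of neurotrophin receptor signalling, was at 165, 176 and 169 CPM against 97.6, 100 and 103 CPM (0.76 ± 0.07, adjusted p = 0.000984), and Nptxr, the neuronal pentraxin receptor, at 150, 124 and 148 CPM against 85.9, 83.6 and 81.6 CPM (0.75 ± 0.09, adjusted p = 0.00368). Msln, the surface protein mesothelin, was at 223, 414 and 218 CPM in G1C7 and 107, 109 and 128 CPM in G2C9 (1.31 ± 0.23, adjusted p = 0.0202); its call ended without G2C9 replicate 1 or 2 (adjusted p = 0.0841 and 0.0906) or any single Gcontrol library (0.0512 to 0.0516).

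**Figure D3:**
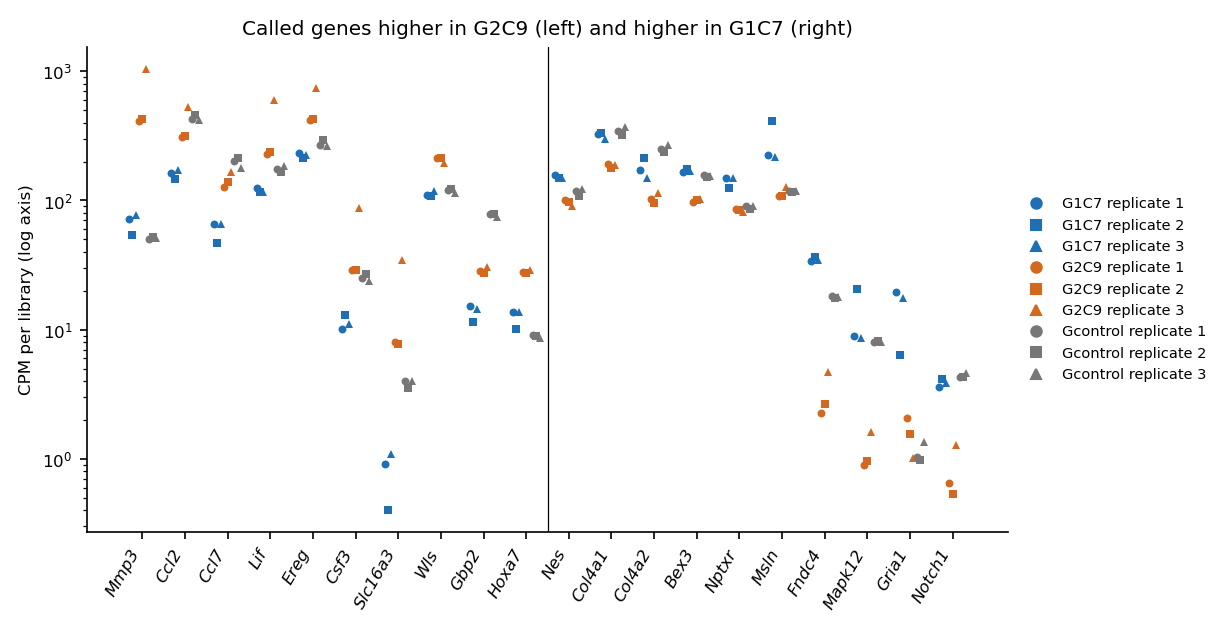
CPM per library on a log axis for 10 genes called higher in G2C9 (left) and 10 called higher in G1C7 (right), with Gcontrol beside them; each symbol is a library. For Mmp3, Lif, Ereg, Csf3 and Slc16a3 the third G2C9 library lies far above the other two, whereas Wls, Gbp2 and Hoxa7 are tight in both clones.

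Signalling and defence genes were taken from 46 lists and are read against the 3.31% of all tested genes that were called. The fit without G1C7 replicate 2 and G2C9 replicate 3 called 14.8% of all genes higher in G1C7 and 12.5% higher in G2C9. List counts from that fit are read against these shares, and a count near them shows nothing particular to its list. Of the same 15604 genes DESeq2 called 1257 (655 higher in G1C7 and 602 higher in G2C9), a larger background for its list counts. The share of all genes with an unadjusted p under 0.05 was not computed. List counts at that threshold therefore have no background and show no enrichment. In the list of cytokines of the IL-6 and IL-1 families, 4 of 20 tested members were called, each higher in G2C9, and 0 were higher in G1C7. Among them were Lif, the neutrophil growth factor Csf3 and, named after its values were seen, the macrophage growth factor Csf1. The list holds Csf1 although it belongs to neither family. Csf1 was at 618, 622 and 606 CPM in G1C7, 838, 842 and 796 CPM in G2C9 and 1203 to 1250 CPM in Gcontrol (-0.42 ± 0.08, adjusted p = 0.0199). The call of Csf3 (-2.09 ± 0.40, adjusted p = 0.0282) ended without G1C7 replicate 1 or 3 (adjusted p = 0.109 and 0.101) or any Gcontrol library (0.0650 to 0.0666), and its difference was -1.36 without G2C9 replicate 3. The median log2 difference over the list was -0.42, against 0.00 over all tested genes, and without the 2 libraries that stood apart 14 members were called higher in G2C9 and 2 higher in G1C7, in a fit that called 12.5% and 14.8% of all genes.

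Chemokines and acute-phase genes showed the same order within each kind of library. The 23 chemokines of the list summed to 1480, 4352 and 1478 CPM in G1C7 and 2822, 2917 and 8509 CPM in G2C9. The G1C7 library that stood apart thus exceeded both ordinary G2C9 libraries while staying below the G2C9 library that stood apart. Gcontrol, at 2999 to 3278 CPM, lay above the ordinary libraries of both clones. Of 15 tested, 2 were called higher in G2C9 (Ccl2 and Ccl7) and 0 higher in G1C7. Without the 2 libraries 9 were called higher in G2C9 and 3 higher in G1C7, beside 12.5% and 14.8% of all genes. Cxcl1, a neutrophil attractant, was at 493, 2434 and 491 CPM against 1287, 1373 and 5635 CPM and was not called (adjusted p = 0.509). The 22 acute-phase and innate defence genes summed to 1306, 4339 and 1277 CPM in G1C7 and 2103, 2108 and 6981 CPM in G2C9, with Gcontrol at 1750 to 1781 CPM. Of 13 tested, 0 were called by edgeR or limma-voom with all libraries, 2 had an unadjusted p under 0.05 and DESeq2 called 2, each of these higher in G2C9. The count at an unadjusted p has no background. In the fit without the 2 libraries edgeR called 8, each higher in G2C9. Fibroblast and pericyte markers and the summed levels of these lists were high in the same 2 libraries, and the part of either in the result was not tested.

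Interferon and antigen presentation genes follow. Of 34 tested type I interferon response genes, 0 were called in either direction by edgeR or limma-voom. An unadjusted p under 0.05 was found for 3 and 2 (higher in G1C7 and in G2C9), counts without a background. DESeq2 called 2 and 2. Without the 2 libraries edgeR called 6 and 5, beside 14.8% and 12.5% of all genes. In the interferon gamma list, 1 of 17 was called (4 higher in G1C7 and 5 in G2C9 without the 2 libraries): Gbp2, a guanylate-binding GTPase, at 15.2, 11.5 and 14.5 CPM in G1C7, 28.5, 27.3 and 30.3 CPM in G2C9 and 75 to 79.1 CPM in Gcontrol (-1.06 ± 0.11, adjusted p = 0.00224). Gbp2 lies on the stretch of chromosome 3, described below, that was lower in G1C7. MHC class I and peptide loading had 0 of 22 called by edgeR or limma-voom at a median of 0.51. There 7 had an unadjusted p under 0.05, a count without a background, and DESeq2 called 3, each higher in G1C7. Without the 2 libraries 15 were called higher in G1C7 and 2 higher in G2C9, at a median of 0.36. H2-D1, a classical class I heavy chain, was at 205, 328 and 198 CPM in G1C7 and 125, 121 and 200 CPM in G2C9, and only G2C9 replicate 3 overlapped G1C7 (0.71 ± 0.24, adjusted p = 0.186; 0.71 with an adjusted p of 2.75e-09 without the 2 libraries). H2-D1 lies on the stretch of chromosome 17 described below, where the median over all tested genes was 0.34. The part of position in the MHC class I result was not tested. NF-kB components had 1 call in each direction of 16. Leaving out the 2 libraries gave 4 in each direction. Nfkb1, encoding p105 and p50, was higher in G2C9 (-0.56 ± 0.09, adjusted p = 0.0151) and the inhibitor Nfkbie higher in G1C7 (0.69 ± 0.11, adjusted p = 0.0106). The call of Nfkb1 ended without G1C7 replicate 3, G2C9 replicate 1, G2C9 replicate 2 or Gcontrol replicate 1 (adjusted p from 0.0534 to 0.0743), and that of Nfkbie without G2C9 replicate 1 or 2 (0.0531 and 0.0615).

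Matrix and adhesion genes were split. Of 28 tested collagens, Col4a1 and Col4a2 were called higher in G1C7 and Col11a1 higher in G2C9, while the main fibrillar chains followed the libraries: Col1a1 was at 1423, 3523 and 1328 CPM in G1C7 and 1345, 1282 and 2561 CPM in G2C9 (0.27 ± 0.40, adjusted p = 0.850). The collagen median was 0.15 with all libraries and -0.14 without the 2, where 5 were called higher in G1C7 and 10 higher in G2C9. That fit called 14.8% and 12.5% of all genes. Col11a1 was at 0.0935, 0.182 and 0.0183 CPM against 1.35, 0.898 and 4.02 CPM (-4.38 ± 0.74, adjusted p = 0.0172), not called without G1C7 replicate 1 (adjusted p = 0.0739) or 3 (0.0557), and moved to -5.17 without G1C7 replicate 2 and -3.50 without G2C9 replicate 3. Of 19 metalloproteinases and their inhibitors, 2 were called with all libraries, both higher in G2C9, at a list median of -0.11. In the fit without the 2 libraries 6 were called higher in G1C7 and 5 higher in G2C9, at a median of 0.08. The 2 were Mmp3 and its chromosome 9 neighbour Mmp13, encoding collagenase-3 (-1.56 ± 0.29, adjusted p = 0.0244; no call without G1C7 replicate 1 or 3 or any Gcontrol library, adjusted p from 0.0604 to 0.0858). Of 18 cadherins and adhesion genes (6 called higher in G1C7 and 5 in G2C9 without the 2 libraries), Cdh5, encoding VE-cadherin, was called higher in G2C9, at 1.27, 0.856 and 1.24 CPM against 3.78, 3.29 and 3.59 CPM (-1.66 ± 0.23, adjusted p = 0.00751). The other 10 endothelial markers summed to 5.89 to 6.74 CPM in G1C7 and 3.17 to 6.6 CPM in G2C9, overlapping through G2C9 replicate 3, and Cldn5 was at 0; their part in the result was not tested.

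Developmental pathways held calls in both directions. NOTCH pathway genes had 2 of 16 called (12.5%). In the fit without the 2 libraries 7 were called higher in G1C7 and 2 higher in G2C9, beside 14.8% and 12.5% of all genes. Notch1, a receptor, was at 3.63, 4.17 and 3.87 CPM in G1C7 and 0.654, 0.531 and 1.29 CPM in G2C9 (2.23 ± 0.32, adjusted p = 0.0081), and G1C7 lay at the Gcontrol level of 4.29 to 4.62 CPM. Its paralogue Notch2 went the opposite way, at 162, 188 and 152 CPM against 287, 231 and 266 CPM (-0.64 ± 0.12, adjusted p = 0.025), a call that ended without G1C7 replicate 1 or 3, G2C9 replicate 1, Gcontrol replicate 1 or Gcontrol replicate 3 (adjusted p from 0.0588 to 0.104). Of 32 WNT genes, 3 were called higher in G1C7 and 2 higher in G2C9 (15.6%), and without the 2 libraries 10 and 5. Of 35 TGF-beta and BMP genes 2 were called in each direction (11.4%), and without the 2 libraries 10 and 9. The firmest were Dkk2, a secreted WNT inhibitor, at 75.1, 73.1 and 71.3 CPM against 50.7, 52.8 and 46.5 CPM (0.55 ± 0.08, adjusted p = 0.00878), and the receptor Fzd3 described above; Wnt4, Sfrp1 and Fzd1 were each called in 2 or fewer of the 9 fits without a library. Wls, which carries WNT proteins to the cell surface, was outside the list and higher in G2C9, at 212, 214 and 195 CPM against 111, 109 and 118 CPM (-0.88 ± 0.08, adjusted p = 0.000865). Of 35 growth factors and receptors, the EGF receptor ligands Tgfa and Ereg were called in opposite directions (without the 2 libraries 9 members higher in G1C7 and 12 in G2C9): Tgfa was at 3.18, 3.51 and 2.34 CPM in G1C7, 0.772, 0.796 and 0.703 CPM in G2C9 and 7.08 to 8.99 CPM in Gcontrol (1.99 ± 0.21, adjusted p = 0.00219).

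Hox genes and neural genes differed as follows. Of 39 Hox genes, 9 were tested, 21 had 0 reads in each library, and Hoxa7 was called higher in G2C9 at 28.0, 27.5 and 28.8 CPM against 13.8, 10.2 and 13.6 CPM (-1.16 ± 0.13, adjusted p = 0.00252). The 9 tested genes all belonged to the Hoxa cluster, with a median log2 difference of -0.52, and without the 2 libraries 5 were called, each higher in G2C9. These neighbours form 1 locus on chromosome 6, where the median over all 781 tested genes was -0.15. Axon guidance had 4 of 49 called, each higher in G1C7. Without the 2 libraries 19 were higher in G1C7 and 6 higher in G2C9, in the fit that called 14.8% and 12.5% of all genes. The firmest were Ephb4, an ephrin receptor, at 78.2, 71.6 and 76.9 CPM against 44.8, 46.5 and 45.6 CPM (0.73 ± 0.07, adjusted p = 0.00173), and the ligand Efna5, at 30.7, 35.2 and 29.4 CPM against 19.7, 20.3 and 16.3 CPM (0.76 ± 0.12, adjusted p = 0.0116). Sema3b, a secreted semaphorin, was called at 1.80 ± 0.27 (adjusted p = 0.00973; 0.0521 without G2C9 replicate 2), and Plxna3, named after its values were seen, at 0.61 ± 0.11 in the full fit (adjusted p = 0.0231) and in 3 of the 9 fits without a library. Of 5 tested oligodendrocyte precursor markers, C1ql1 and Cspg4 were called higher in G2C9, and 4 were without the 2 libraries. Cspg4, the NG2 proteoglycan, was at 1.53, 0.911 and 1.46 CPM in G1C7 and 4.0, 3.39 and 5.41 CPM in G2C9, both far below the 38.4 to 47.7 CPM of Gcontrol (-1.71 ± 0.24 between the clones, adjusted p = 0.00755).

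Of 23 cholesterol synthesis genes, 3 were called higher in G1C7 (Fdft1, Mvd and Nsdhl; 13%) and 0 higher in G2C9, at a median of 0.33. In the same direction DESeq2 called 8 and limma-voom 3, while 0 went the other way by either. Over all 15604 genes DESeq2 called 655 higher in G1C7. An unadjusted p under 0.05 was found for 13 higher in G1C7 and 0 higher in G2C9, counts without a background that show no enrichment. Fdft1, squalene synthase, was at 144, 151 and 146 CPM against 107, 115 and 104 CPM (0.44 ± 0.07, adjusted p = 0.0159). These 3 calls were kept in 4, 2 and 1 of the 9 fits without a library, respectively. Without the 2 libraries that stood apart 21 of the 23 were called higher in G1C7 and 0 higher in G2C9, at a median of 0.39. The summed level of the list was 3547, 2616 and 3514 CPM in G1C7, 2811, 2818 and 2322 CPM in G2C9 and 2183 to 2209 CPM in Gcontrol. Cell cycle and mitosis genes had 1 of 35 called (E2f2, higher in G1C7, in 1 of the 9 fits without a library; 6 higher in G1C7 and 5 in G2C9 without the 2 libraries), and their sum was 9187, 5907 and 9172 CPM against 9381, 9458 and 6854 CPM, low in the 2 libraries that stood apart. Glycolysis had 1 of 21 tested gene IDs called, Hk2 (-0.43 ± 0.09, adjusted p = 0.0397; called in 1 of the 9 fits without a library), and 6 higher in G2C9 without the 2 libraries. Hypoxia response had 1 of 17 called, Slc16a3, and 2 higher in G1C7 and 8 in G2C9 without the 2. In all, 21 of the 46 lists held 0 calls by edgeR, and limma-voom called no member of these 21 either, while DESeq2 called at least 1 member in 13 of them. Among the 21 were p53 targets (2 of 18 with an unadjusted p under 0.05), immediate early genes (5 of 22) and Polycomb and H3K27 demethylase genes (0 of 13), counts again without a background. Without the 2 libraries edgeR called members of each, higher in G1C7 and in G2C9 respectively. These were 5 and 4 p53 targets, 9 and 5 immediate early genes, and 2 and 1 Polycomb and demethylase genes, beside 14.8% and 12.5% of all genes.

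**Figure D4:**
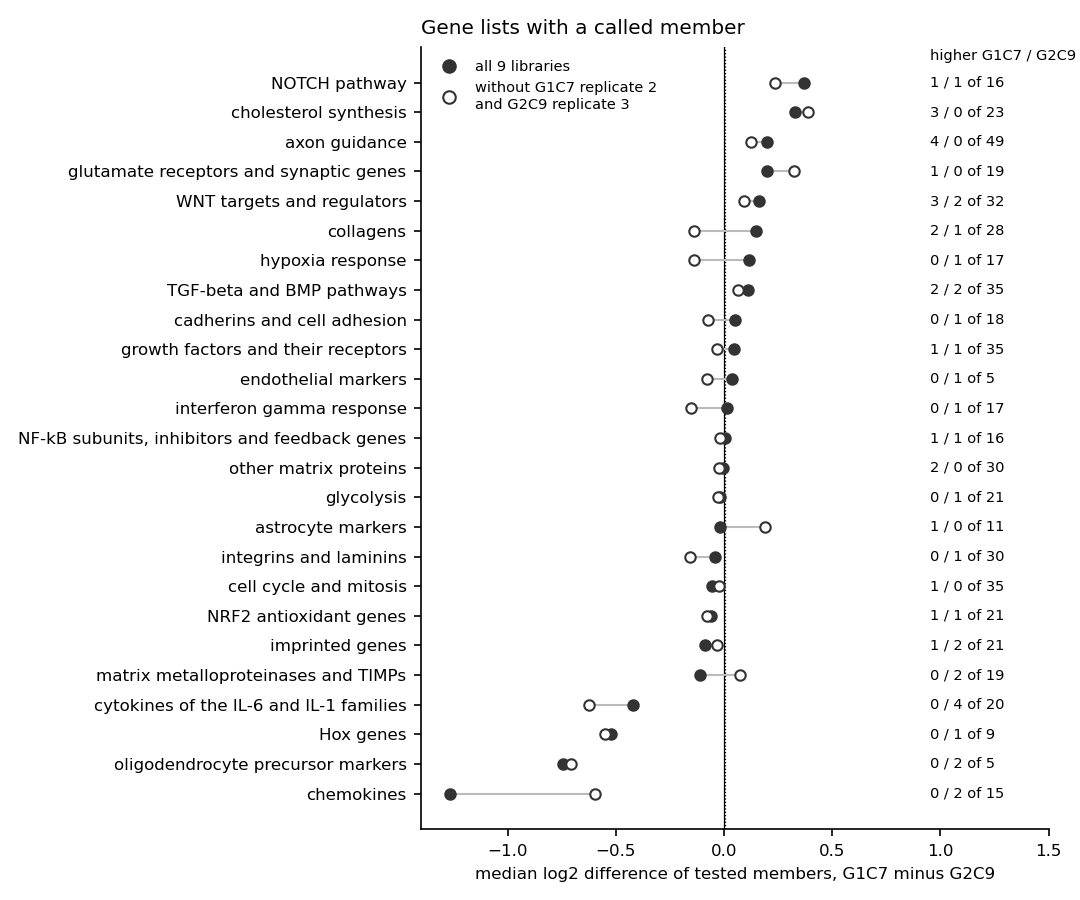
Median log2 difference, G1C7 minus G2C9, over the tested members of each list with a called member; filled circles are from all 9 libraries, open circles from the 7 libraries left without G1C7 replicate 2 and G2C9 replicate 3, and the numbers give members called higher in G1C7, higher in G2C9 and tested. Filled circles are lowest for chemokines and open circles for oligodendrocyte precursor markers, and medians change side of 0 between the circles for several lists such as collagens and hypoxia response.

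Calls were unevenly spread over the genome. On chromosome 3, 94 of 837 tested genes were called (11.2%), 86 of them higher in G2C9, and 66 of these 86 by under 2-fold. Chromosome 17 held 60 called of 775 (7.74%), 55 higher in G1C7, of which 46 by under 2-fold. Chromosome 12 held 33 of 548 (6.02%), 21 higher in G2C9. The median log2 difference was -0.26 on chromosome 3, 0.27 on chromosome 17 and -0.15 on chromosome 6, while it lay between -0.06 and 0.08 on each other nuclear chromosome. Without the 2 libraries that stood apart these medians were -0.31, 0.28 and -0.15.

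Within these chromosomes the shift covered long stretches, whose bounds were set after the values were seen. On chromosome 3 the 228 tested genes that start under 70 Mb had a median of 0.05 and 0 calls higher in G2C9. The 596 that start from 80 Mb on had a median of -0.36, 84.1% of them lay below 0, and 85 were called higher in G2C9. Against Gcontrol this stretch was at -0.45 in G1C7 and -0.09 in G2C9. The highly expressed Selenof, Wls, Fubp1, Notch2 and Nfkb1 and the lower Gbp2, Miga1, Tdrkh, Dclk2 and Col11a1 lie on it, as do Nes and Dkk2, which were higher in G1C7. On chromosome 17 the 480 tested genes from 30 Mb on had a median of 0.34, with 85.4% above 0, and lay 0.46 above Gcontrol in G1C7 and 0.11 above it in G2C9; the 92 genes under 20 Mb were at 0.02. Nfkbie, Efna5, the class I gene H2-D1 and the latent TGF-beta binding protein gene Ltbp1 lie on this stretch. The 139 genes in the first 40 Mb of chromosome 12 had a median of -0.36 (-0.38 in G1C7 and 0.00 in G2C9 against Gcontrol), whereas the 409 beyond were at 0.07. Of 232 windows of 10 Mb with 20 or more tested genes, 175 had a median within 0.1 of 0; all 5 above 0.3 lay on chromosome 17 and all 10 below -0.3 on chromosomes 3 and 12. Outside chromosomes 3 and 17 and the first 40 Mb of chromosome 12, 344 of 13853 genes were called (2.48%), 196 higher in G1C7 and 148 higher in G2C9; within them 173 of 1751 were (9.88%).

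**Figure D5:**
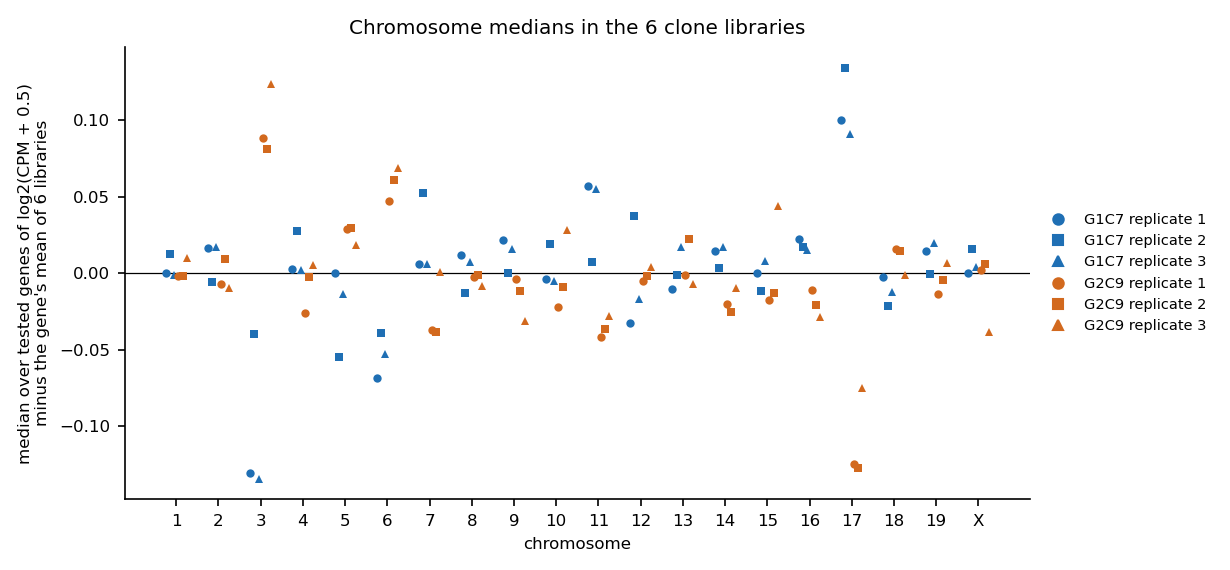
For each chromosome (horizontal), the median over its tested genes of log2(CPM + 0.5) minus the gene's mean over the 6 clone libraries; colours are clones and symbols are replicates. On chromosome 3 the 3 G1C7 libraries lie below and the 3 G2C9 libraries above 0, on chromosome 17 the order is reversed, and most other chromosomes lie within 0.05 of 0.

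Set beside Gcontrol, the genes called higher in G1C7 fell in every position: Gcontrol was above both clones for 70 of the 261, below both for 63, between them and nearer G1C7 for 66, and between them and nearer G2C9 for 62. For the 256 genes called higher in G2C9 it was above both for 119 (46.5%) and nearer G2C9 for 81 (31.6%), and below both for 22 (8.59%). It was nearer G1C7 for the other 34 (13.3%). Over all tested genes Gcontrol was above both for 37.9%, below both for 40.7%, between and nearer G1C7 for 9.63% and between and nearer G2C9 for 11.7%. Genes called between the clones and called in opposite directions against Gcontrol numbered 15 (0.0961% of those tested). Tgfb1i1, encoding the focal adhesion protein HIC-5, was such a gene, at 52.6, 52.2 and 57.4 CPM in G1C7, 14.8, 16.1 and 20.1 CPM in G2C9 and 36.9 to 38.2 CPM in Gcontrol (0.53 above Gcontrol in G1C7, adjusted p = 0.0161; -1.14 in G2C9, adjusted p = 0.000771). Impact, an imprinted gene whose protein restrains the translation kinase GCN2, was at 41.5, 25.1 and 40.3 CPM in G1C7, 111, 112 and 105 CPM in G2C9 and 56.3 to 60.5 CPM in Gcontrol. Another imprinted gene, Grb10, an adaptor that restrains insulin receptor signalling, was far below Gcontrol in both clones, at 0.150 to 0.183 CPM in G1C7, 0.490 to 1.56 CPM in G2C9 and 94.6 to 99.0 CPM in Gcontrol.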

How the data were processed

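Polyadenylated RNA of 9 libraries, 3 each of G1C7, G2C9 and Gcontrol, was sequenced with a stranded kit as paired reads of 100 bases, per the labels' protocols. The authors deposited 1 table of read counts per library, made with featureCounts 1.6.0 over exons of GENCODE vM25 genes (GRCm38), per the file headers. FastQC 0.11.8, STAR 2.6.1c, edgeR and limma are named in the submitters' processing notes. In 9 of 9 headers the options for pairs, strand and multi-mapping were absent, so each mate was counted, strand was ignored, and 6 reads can be 3 pairs. Symbols came from GENCODE vM21 (55141 of 55401 IDs matched). The 1569 genes on the Y chromosome were left out.

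CPM used TMM factors (0.978 to 1.03). Genes kept by filterByExpr entered 1 edgeR 4.0.16 robust quasi-likelihood fit of all 9 libraries (R 4.3.3, 6 residual degrees of freedom, common biological coefficient of variation 0.248). The code was first run on simulated counts. These held no library that stands apart, so that run does not bear on how the fit handles such libraries. A call is a Benjamini-Hochberg adjusted p under 0.05 over all 15604 tested genes; the SE is the absolute log2 difference over the square root of F. DESeq2 1.42.0 and limma-voom 3.58.1 were alternatives, with others in the closing section.

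Named genes were TIM-3 and its ligands, the 15 largest differences per direction (10 at a mean of 100 CPM or more) among called protein-coding genes at 1 CPM or more whose clone libraries did not overlap, without Gm and Rik names, up to 3 called members per list and direction (the 2 with the highest mean where none was), up to 12 genes called in opposite directions against Gcontrol, and the 8 most abundant near-0 genes per clone. Csf1, Cxcl1, H2-D1, Hp, Nppc, Plxna3, Slc4a3 and the marker genes were named after their values were seen. Some genes the rule names are not reported here. The members, lists and alternatives were chosen with earlier results of these data known.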

Additional observations from a re-analysis of the deposited data

Results flagged for a closer look

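Of the 15 genes called between the clones and called in opposite directions against Gcontrol, the 12 with the largest smaller change are given here; each is a difference between groups under the same contrast, tested as the difference between the clones (log2, G1C7 minus G2C9, edgeR). Higher in G2C9 were Gata4 at -11.42 (G1C7 is at 0 reads, so this fitted value depends on the prior count), Miga1, which takes part in mitochondrial fusion, at -4.69, the lactate exporter gene Slc16a3 at -4.38, Tmem144 at -4.02, the piRNA pathway gene Tdrkh at -3.53, Rnf227 at -1.82 and Impact at -1.62. Higher in G1C7 were Fndc4 at 3.45, Tgfb1i1 at 1.67, the nucleoside diphosphate kinase gene Nme4 at 1.6, the mannosyltransferase gene Dpy19l3 at 1.37 and the carbonyl reductase gene Cbr3 at 0.86.

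Miga1 was at 0.0748, 0.109 and 0.0365 CPM in G1C7, 1.82, 1.88 and 2.17 CPM in G2C9 and 0.353 to 0.961 CPM in Gcontrol. Tmem144 was at 0.146 to 0.255 CPM in G1C7, 2.79 to 4.04 CPM in G2C9 and 0.851 to 1.13 CPM in Gcontrol; Miga1 and Tdrkh lie in the stretch of chromosome 3 that was lower in G1C7, and Tmem144 just before it. These comparisons share the Gcontrol libraries. Cbr3 was at 20.4, 18.3 and 20.7 CPM in G1C7, 10.7, 10.4 and 11.7 CPM in G2C9 and 15.1 to 16.4 CPM in Gcontrol. Its neighbour and paralogue Cbr1 went the opposite way between the clones, at 9.11, 12.7 and 9.09 CPM against 16.1, 16.4 and 21.9 CPM (-0.82 ± 0.17, adjusted p = 0.0423), a call kept only without G1C7 replicate 2 among the 9 fits that leave out a library, with adjusted p from 0.0713 to 0.139 in the others. The call of Slc16a3 ended without G1C7 replicate 1 (adjusted p = 0.0533); the other 11 genes were called in each of these 9 fits.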

How the results depend on the processing

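The count of called genes (517; 261 higher in G1C7, 256 higher in G2C9) depended on the libraries and the tool. It was 1257 (655 and 602) with DESeq2, 65 (28 and 37) with only the 6 clone libraries in the fit, and 4310 (2331 and 1979) without G1C7 replicate 2 and G2C9 replicate 3. Leaving out each of the 9 libraries in turn gave from 179 to 1273 calls, 76 to 610 higher in G1C7 and 99 to 663 higher in G2C9; the lowest count was without G2C9 replicate 2. RLE size factors (523), limma-voom (523) and no filter on low counts (394) stayed within 1.5 times. The 517 genes were all among the calls of DESeq2 and of the fit without both libraries, and 483 of them among those of limma-voom.

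With the replicate number as a block, 157 genes were called (79 higher in G1C7, 78 in G2C9), all among the 517. Deviations from the group mean correlated at 0.410, -0.512 and -0.557 between same-numbered G1C7 and G2C9 libraries. Not every library correlated best with its own number (0.678 between G1C7 replicate 2 and G2C9 replicate 3). Deviations within a group of 3 sum to 0, and the 2 libraries that stood apart weigh heavily in them. These correlations therefore do not show whether libraries of the same number were prepared together, which was not tested.

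Requiring 0 reads in place of at most 6 left 6 of 12 genes near 0 in G1C7 and 3 of 6 in G2C9. Of 138 named genes, 95 were called, and 55 of these in each of the 9 fits without a library; all 95 kept their call without both libraries, but 60 lost it with only the 6 clone libraries and 37 with the replicate block. Junb, at 0.06 with all libraries, turned to -0.22 without both, and Plk2, at 0.01, to -0.28 without both; leaving out 1 library at a time gave Plk2 values from -0.26 (without G1C7 replicate 2) to 0.14. The causes of these changes were not tested. Counting error limits genes near the floor of 6 reads.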
